A study of Rattus norvegicus with 18 samples.

Results

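Dorsal root ganglia (DRGs) of rats that had received a total knee arthroplasty (TKA) were compared with those of naive rats to find the transcripts that were higher or lower 24 h after a complete joint replacement. The comparison used 12 of the 18 rats of the study, chosen by group label alone, with 6 TKA and 6 naive rats. All were Sprague Dawley rats of about 300 g, and each group had 3 rats of either sex by its labels, with no genetic change. TKA rats were anesthetized with isoflurane, and the left knee was opened, its menisci were removed, the femur and tibia were reamed and trimmed, and steel implants were fitted. Naive rats had no procedure, so anesthesia, skin incision, bone and joint injury, and the implant cannot be told apart in this comparison. L3 and L4 ganglia of the left side were taken from each rat, and each rat gave 1 library. The 6 sham rats, with anesthesia, skin incision, and sutures, entered only alternative fits of all 3 groups.

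The DRG holds the cell bodies of the sensory neurons that supply the limb, each wrapped by satellite glial cells, together with axons, Schwann cells, macrophages, and vessels. After injury to tissue or axons, these cells are known to start programs with shared regulators. Cytokines of the interleukin-1 and interleukin-6 families act through NF-kB and STAT3 and induce C/EBP transcription factors along with the inhibitors that end the signal. Injured sensory neurons are known to induce Jun, Sox11, and secreted factors, and to reduce many ion channels and synaptic proteins.

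The data were counts of reads per Ensembl transcript, with 20519013 to 22953863 counts per naive rat and 20684787 to 29343899 per TKA rat. Levels are given as CPM, counts relative to the library total after scaling of the libraries by TMM. Ganglion identity was checked with summed markers. The neuronal marker list, which is dominated by the neurofilaments, ranged from 35578 to 46620 CPM in naive rats and from 17592 to 39624 CPM in TKA rats. TKA rat 2 stood apart in these sums, as it had in an earlier analysis of these data. Its neuronal sum was the lowest of the 12, its myelinating Schwann cell markers summed to 103839 CPM against 7465 to 12761 CPM in naive rats, and its skeletal muscle markers to 10556 CPM against 76.3 to 339 CPM. TKA rat 6 lay between rat 2 and the others, with 21700, 56970, and 1267 CPM in the same 3 sums. Results are therefore given with and without TKA rat 2. This choice was made with earlier results of these data known, and both fits keep TKA rat 6. The library labelled female TKA rat 4 held 3472 counts on 3 transcripts seen in rats labelled male and 0 on a transcript seen in the other rats labelled female, so its label and its counts differ.

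**Figure D1:**
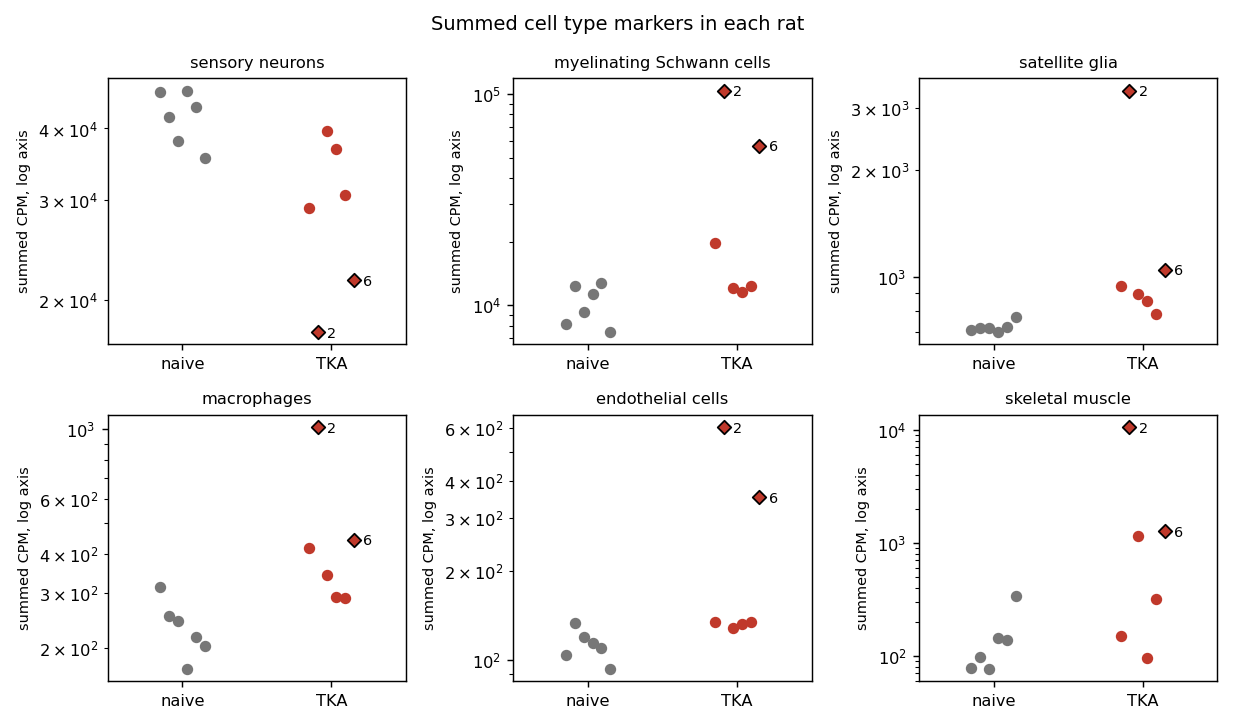
Summed CPM of 6 lists of cell type markers (vertical log axes) in each naive rat (grey) and each TKA rat (red), with TKA rats 2 and 6 as numbered diamonds. TKA rats 2 and 6 hold the highest sums of the Schwann cell, satellite glia, macrophage, endothelial, and muscle lists and the lowest sums of the neuronal list.

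With all 12 rats, 13 transcripts rose and 0 fell in TKA rats among 15170 tested, which is 0.0857% and 0% of the transcripts. The calls rest on edgeR's quasi-likelihood test, and a call needed a 1.5-fold difference and a p-value under 0.05 after Benjamini-Hochberg adjustment. All 13 carry gene names, and in all 13 the 6 TKA rats lay above all 6 naive rats. Such a full separation was seen upward in 192 transcripts (1.27%) and downward in 196 (1.29%). At an unadjusted p-value under 0.05, 1774 transcripts were higher and 831 lower, and the lowest adjusted p-value of a lower transcript was 0.0641. DESeq2 without a prior called 362 raised and 67 lowered, and limma voom with quality weights called 100 raised and 23 lowered. Single libraries moved the count of 13 by more than 1.5 times. It was 6, 4, 7, 3, and 3 without naive rat 2, 3, 4, 5, or 6, and 3, 92, 6, 36, and 4 without TKA rat 1, 2, 4, 5, or 6. *Zfp36*, *Cebpd*, and *Tubb6* were called in all 12 of the fits that left out 1 rat, and each of the other 10 transcripts was lost in some of them.

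The inflammatory transcripts among the 13 were *Zfp36*, *Cebpd*, *Ifitm3*, and *Il1r1*. *Zfp36* (ENSRNOT00000090129) encodes tristetraprolin, which binds AU-rich elements and speeds the decay of cytokine mRNAs. It lay between 16.0 and 22.2 CPM (median 19.7) in naive rats and between 45.8 and 70.7 CPM (median 52.4) in TKA rats. The log2 fold-change was 1.48 (SE 0.13, edgeR adjusted p = 0.000392), with TKA rat 2 at 53.4 CPM in the middle of its group. *Cebpd* (ENSRNOT00000074586), a C/EBP transcription factor of the acute phase response, was at 25.9 ± 6.5 CPM (SD, n = 6) in naive rats and 71.9 ± 9.59 CPM (SD, n = 6) in TKA rats. Its naive levels reached 37.8 CPM in the highest rat, and the lowest TKA rat was at 60.7 CPM. The log2 fold-change was 1.47 (SE 0.16, edgeR adjusted p = 0.00185). *Ifitm3* (ENSRNOT00000020265), an interferon-induced membrane protein that restricts virus entry, ranged from 26.5 to 40.7 CPM (median 27.7) in naive and from 45.3 to 77.8 CPM (median 63.4) in TKA rats. The groups did not overlap, with a log2 fold-change of 1.07 (SE 0.14, edgeR adjusted p = 0.0149). *Il1r1* (ENSRNOT00000082146), the signaling receptor of interleukin-1, was much less abundant, at 3.06 to 5.67 CPM (median 4.0) in naive rats and 7.64 to 19.2 CPM (median 12.2) in TKA rats. TKA rat 2 held its highest level, and the log2 fold-change was 1.58 (SE 0.24, edgeR adjusted p = 0.0197) with that rat and 1.42 (edgeR adjusted p = 0.00525) without it.

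Neuronal and cytoskeletal transcripts made a further set. *Vgf* (ENSRNOT00000041808) encodes a secreted neuropeptide precursor that neurotrophins induce. It lay within 28.1 to 33.7 CPM in naive rats, and at 37.2, 91.8, and 150 CPM in TKA rat 2, TKA rat 6, and the highest TKA rat. The group means were 29.8 ± 2.33 and 104 ± 41.9 CPM (SD, n = 6). Its log2 fold-change was 1.80 (SE 0.26, edgeR adjusted p = 0.0185) with 12 rats and 1.97 (SE 0.14, edgeR adjusted p = 4.15e-06) without TKA rat 2. *Tubb6* (ENSRNOT00000024947), a beta-tubulin, rose from 19.9 ± 2.08 to 42.1 ± 8.01 CPM (SD, n = 6), with an edgeR adjusted p of 0.00672. *Twf1*, which caps and severs actin filaments, was at 69.1 to 79.9 CPM in naive and 95.2 to 145 CPM in TKA rats. Its log2 fold-change of 0.65 (SE 0.099) passed with an edgeR adjusted p of 0.0197.

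The other 6 transcripts have diverse known roles. *Cdkn1a*, the p21 inhibitor of the cell cycle, lay between 1.14 and 4.26 CPM (median 3.91) in naive rats and between 8.64 and 21.7 CPM (median 11.6) in TKA rats, a log2 fold-change of 1.92 (SE 0.32, edgeR adjusted p = 0.0419). *Apold1*, an early response gene of endothelial cells, ranged from 5.0 to 9.38 CPM in naive and from 13.3 to 36.1 CPM in TKA rats. *Cldn1*, a tight junction protein of the perineurium and other barriers, ranged from 10.1 to 22.3 CPM in naive and from 26.7 to 60.6 CPM in TKA rats. For both, TKA rat 2 was the highest, and the log2 fold-changes of 1.64 and 1.52 were 1.40 and 1.38 without it. *Htr2b* (ENSRNOT00000023829), a serotonin receptor, had 0 counts in all 6 naive rats and 266 counts over the 6 TKA rats. Against a floor of 3 counts over the naive group it was at least 81.9-fold higher in TKA rats, at 0.860 to 3.92 CPM (edgeR adjusted p = 0.0197). *Plod3*, a lysyl hydroxylase of collagen, and *Fam210b*, a mitochondrial protein, changed less. *Plod3* had a log2 fold-change of 0.59 (SE 0.087, edgeR adjusted p = 0.0197) with 12 rats and 0.57 without TKA rat 2, which is just under the fold threshold. *Fam210b* was tightly grouped, at 13.8 to 18.4 CPM in naive and 24.7 to 28.5 CPM in TKA rats, with a log2 fold-change of 0.74 (SE 0.11, edgeR adjusted p = 0.0185).

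**Figure D2:**
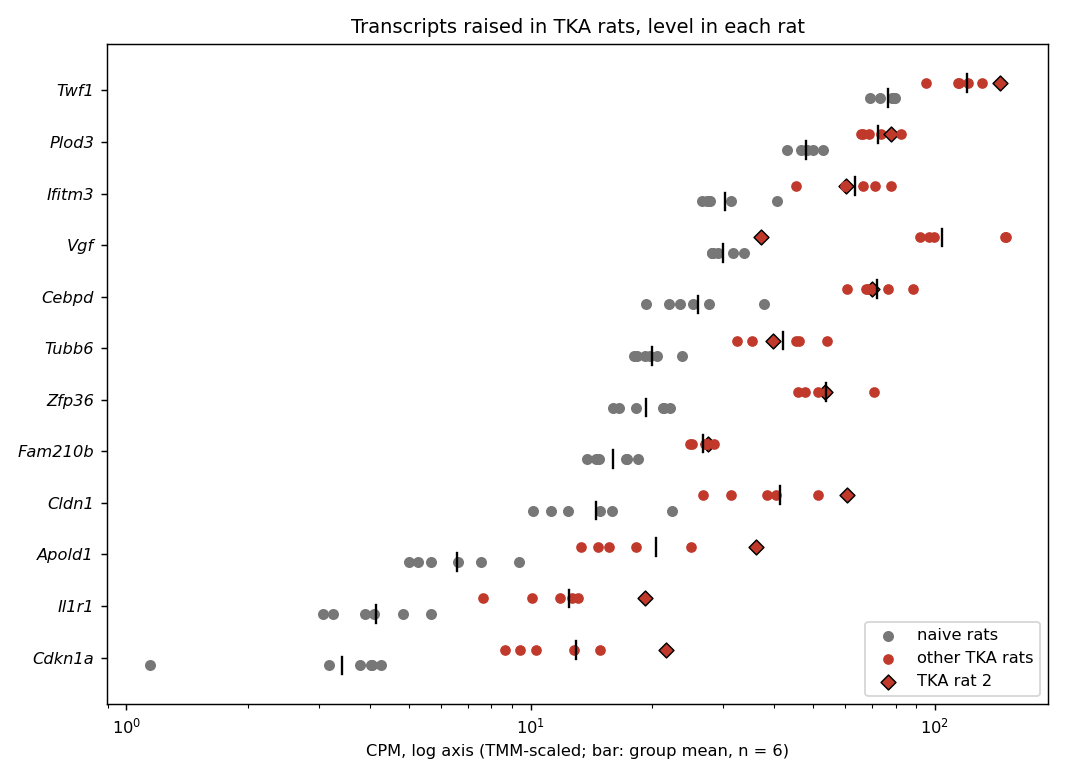
Level in CPM (log axis) of 12 of the 13 transcripts raised with 12 rats, in each naive rat (grey) and each TKA rat (red), with the group means as bars and TKA rat 2 as a diamond. *Htr2b* is left out because its naive counts were 0, and in the 12 rows drawn no TKA rat overlaps a naive rat.

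The promoters of these genes were read for binding motifs, since their transcripts rose together. RefSeq promoters (GRCr8, 250 bases before to 50 after the start) were matched for 12 of the 13 symbols. A symbol was matched only if it had exactly 1 such promoter, and the set of all 33469 promoters was not limited in this way. The shares of called genes and of all promoters thus come from sets chosen by unlike rules. Motifs searched were TGACGTCA (the cAMP response element), TGANTCA (AP-1), and TTCNNNGAA (STAT), each of which reads as itself on the other strand. The cAMP response element was found in 1 of the 12 (8.33%) and in 1.83% of all 33469 promoters of that length, AP-1 in 1 (8.33%) and 7.33%, and STAT in 3 (25%) and 8.87%. Of the transcripts raised without TKA rat 2, 66 had a matched promoter. The motifs, in the same order, were in 2 (3.03%), 6 (9.09%), and 8 (12.1%) of the 66. In the 10 promoters of lowered transcripts they were in 0, 1 (10%), and 1 (10%). The 4 of the 12 promoters with a match are shown with the match in capitals. A match is a run of letters and not a bound site, and these shares were not tested.
Vgf, chr12:25276971-25277270, minus strand, cAMP response element 90 bases before the start: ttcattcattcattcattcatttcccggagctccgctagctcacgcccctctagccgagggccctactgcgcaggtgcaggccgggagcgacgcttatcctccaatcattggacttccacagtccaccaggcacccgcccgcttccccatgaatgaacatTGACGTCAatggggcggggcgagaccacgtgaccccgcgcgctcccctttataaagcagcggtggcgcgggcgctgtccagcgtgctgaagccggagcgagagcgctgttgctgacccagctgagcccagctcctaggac
Zfp36, chr1:92799059-92799358, minus strand, STAT motif 10 bases after the start: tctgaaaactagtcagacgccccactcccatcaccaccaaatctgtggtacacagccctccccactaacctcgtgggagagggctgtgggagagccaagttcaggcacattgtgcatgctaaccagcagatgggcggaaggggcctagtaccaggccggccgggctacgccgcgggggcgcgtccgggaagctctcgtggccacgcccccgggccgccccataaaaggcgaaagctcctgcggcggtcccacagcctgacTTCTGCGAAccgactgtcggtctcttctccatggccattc
Ifitm3, chr1:205541709-205542008, minus strand, AP-1 and STAT motifs 151 and 33 bases before the start: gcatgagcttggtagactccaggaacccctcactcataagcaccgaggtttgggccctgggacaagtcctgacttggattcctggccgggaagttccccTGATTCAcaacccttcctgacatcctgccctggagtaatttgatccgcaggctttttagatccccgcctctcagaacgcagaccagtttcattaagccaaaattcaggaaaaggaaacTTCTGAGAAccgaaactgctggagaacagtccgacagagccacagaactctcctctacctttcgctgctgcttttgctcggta
Apold1, chr4:169552349-169552648, plus strand, STAT motif 73 bases before the start: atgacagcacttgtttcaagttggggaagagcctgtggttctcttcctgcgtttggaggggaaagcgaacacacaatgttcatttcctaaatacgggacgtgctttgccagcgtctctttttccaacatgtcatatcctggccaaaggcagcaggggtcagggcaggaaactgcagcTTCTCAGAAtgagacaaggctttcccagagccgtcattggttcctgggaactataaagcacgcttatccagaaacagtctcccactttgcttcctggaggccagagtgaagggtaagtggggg

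Without TKA rat 2, 92 transcripts rose and 21 fell among 15441 tested, which is 0.596% and 0.136%, and 12 of the 13 transcripts above were called again. Log2 fold-changes had a median of 1.13 in the raised and -0.74 in the lowered transcripts, against 0.011 in all transcripts tested. Names were at hand for 80 of the raised and 15 of the lowered transcripts. In 73 of the 92 all 5 TKA rats lay above all naive rats, and in 20 of the 21 they lay below them. These transcripts were called by a test on the same rats, so such a separation was likely from the start. Its share over all transcripts tested was not counted in this fit. Without naive rat 1 or 4 and without TKA rat 1 or 5, the raised count was 54, 47, 59, and 164 and the lowered count 8, 9, 12, and 34. Of the calls, 41 raised and 5 lowered transcripts were called in all 11 of the fits that left out a further rat.

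**Figure D3:**
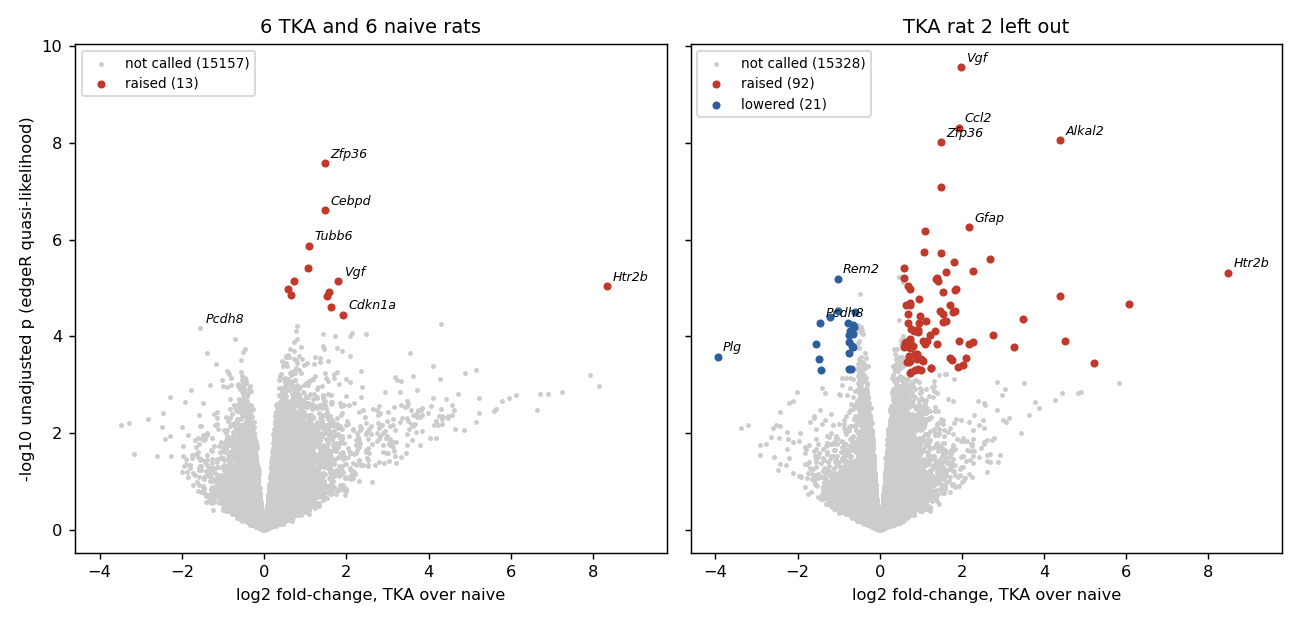
Log2 fold-change of TKA over naive rats (horizontal) against the -log10 unadjusted p-value (vertical) of every transcript tested, with all 12 rats (left) and without TKA rat 2 (right). Red and blue points mark the 13 raised transcripts on the left and the 92 raised and 21 lowered on the right.

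The additional transcripts with the lowest p-values included secreted injury signals. *Ccl2* (ENSRNOT00000009448), the chemokine that recruits monocytes through its receptor CCR2, lay between 9.03 and 14.0 CPM (median 11.1) in naive rats. In TKA rats it was at 0.522 CPM in rat 2 and between 30.4 and 57.0 CPM in the other 5. The log2 fold-change without TKA rat 2 was 1.92 (SE 0.16, edgeR adjusted p = 3.72e-05), and with it 1.66 (SE 0.59, edgeR adjusted p = 0.194). *Alkal2* (ENSRNOT00000006921), a ligand of the receptor tyrosine kinase ALK, was likewise lowest in TKA rat 2. It was at 0.297 to 4.15 CPM (median 1.59) in naive rats, at 0 counts in TKA rat 2, and at 30.01 to 50.3 CPM in the other 5 TKA rats (log2 fold-change 4.39, SE 0.39, edgeR adjusted p = 3.76e-05 without rat 2). *Gfap* (ENSRNOT00000034401), an intermediate filament of satellite and non-myelinating glia, went the other way in TKA rat 2. It was at 14.1 to 30.1 CPM (median 21.2) in naive rats, at 1018 CPM in TKA rat 2, and at 39.5 to 145 CPM in the other 5, so that all 6 TKA rats lay above all naive rats. Its log2 fold-change was 2.17 (SE 0.26, edgeR adjusted p = 0.00143) without TKA rat 2 and 3.55 (SE 0.71, edgeR adjusted p = 0.0942) with it. Some of the other raised transcripts were near 0 in naive rats. *Tgm1*, a transglutaminase of epithelia, was at most 0.763 CPM in naive rats and at 2.92 to 9.81 CPM in all 6 TKA rats. *Smagp*, a small membrane glycoprotein, was at 0.352 to 1.65 CPM against 1.67 to 10.8 CPM, with TKA rat 2 the lowest of its group.

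Among the lists, genes of the axon injury and growth program of sensory neurons made up the largest group of calls relative to its size. The list was drawn up with earlier results of these data known, so its count is a description and not a test. The list named 27 genes, of which 18 had a named transcript and 18 were tested without TKA rat 2. *Atf3*, *Gal*, *Npy*, *Sprr1a*, and *Gap43* were among the listed genes without a named transcript. Of the 18 tested, 13 rose and 0 fell, against 2.52% raised over all 3179 named transcripts tested. One of the 13, *Flnc*, differed from the naive mean by 5.30 in TKA rat 2 and by -0.30 in TKA rat 5 (log2 CPM). The median log2 fold-change of the list was 1.54, and 1.47 with 12 rats, when 3 of 17 rose. *Gadd45g* and *Gadd45a*, stress-induced proteins of the DNA damage response, had log2 fold-changes of 1.62 (SE 0.23, edgeR adjusted p = 0.00499) and 1.46 (SE 0.25, edgeR adjusted p = 0.0124). *Flrt3*, an adhesion molecule that guides axons, was at 20.2 to 31.1 CPM in naive rats, 16.5 CPM in TKA rat 2, and 38.8 to 161 CPM in the other 5 TKA rats. *Sox11*, a transcription factor of axon regrowth, was at 0.875 to 8.01 CPM in naive rats, 1.67 CPM in TKA rat 2, and 8.86 to 41.0 CPM in the others. Both rose without TKA rat 2, with edgeR adjusted p-values of 0.00653 and 0.0419. *Jun*, the AP-1 subunit that axon injury induces, was more abundant and changed less, from 147 to 180 CPM in naive rats to 207 to 466 CPM in the 5 TKA rats (log2 fold-change 0.98, SE 0.17, edgeR adjusted p = 0.0133). *Bdnf*, the neurotrophin, was at or under 0.554 CPM in naive rats and had a log2 fold-change of 3.51 (SE 0.86) that missed the threshold (edgeR adjusted p = 0.062). TKA rat 2 was below the naive mean, or at 0, for *Alkal2*, *Flrt3*, *Sox11*, *Jun*, *Bdnf*, and *Gadd45a*, the last at 35.5 CPM against a mean of 36.3 CPM.

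Immediate early transcription factors rose in part. Of 26 genes listed, 17 were named and 16 tested, and 6 rose and 0 fell without TKA rat 2, with 0 in either direction with 12 rats. Over all named transcripts tested, 2.52% rose without TKA rat 2. *Fos*, the partner of Jun in AP-1, was at 6.61 to 10.1 CPM in naive rats, 7.25 CPM in TKA rat 2, and 9.99 to 44.3 CPM in the other 5 TKA rats (log2 fold-change 1.62, SE 0.29, edgeR adjusted p = 0.0155). *Egr1*, a zinc finger factor of neuronal activity, was at 17.6 to 36.9 CPM in naive rats and 35.4 to 86.8 CPM in the same 5, which overlap, while TKA rat 2 was below all naive rats at 12.2 CPM (log2 fold-change 1.23, SE 0.24, edgeR adjusted p = 0.0199). *Myc*, the growth regulator, was low throughout and did not overlap, at 1.48 to 3.29 CPM in naive and 4.33 to 10.8 CPM in all 6 TKA rats (log2 fold-change 1.83 without rat 2, SE 0.31, edgeR adjusted p = 0.0124). *Nr4a2* and *Klf2* completed the 6 with *Jun*.

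The C/EBP and interleukin-6 list held the largest number of calls after the axon injury list. Of 26 genes listed, 21 were named and tested. *Cebpd* and *Il1r1* rose with 12 rats, and 10 of the 21 rose and 0 fell without TKA rat 2. The share raised over all named transcripts was 2.52% in the latter fit. *Socs3* (ENSRNOT00000003940), the inhibitor that STAT3 induces to end interleukin-6 signaling, lay between 3.73 and 7.92 CPM (median 4.53) in naive rats and between 8.61 and 48.4 CPM (median 16.3) in all 6 TKA rats. Its log2 fold-change was 2.26 (SE 0.33, edgeR adjusted p = 0.00499) without TKA rat 2, the rat with the lowest TKA level. *Jak2*, the kinase of these receptors, rose less (log2 fold-change 0.68, SE 0.12, edgeR adjusted p = 0.0127). *Timp1*, an inhibitor of matrix proteases, had a log2 fold-change of 0.75 (SE 0.14, edgeR adjusted p = 0.0183). *Reg3b*, a secreted lectin induced in injured neurons, was at 0.176 to 1.11 CPM in naive rats and 1.59 to 15.8 CPM in the 5 TKA rats (log2 fold-change 3.48, SE 0.62, edgeR adjusted p = 0.0151). *Steap4*, a metalloreductase, and *Lrg1*, a leucine-rich glycoprotein, were highest in TKA rats 2 and 6, at 83.0 and 74.1 CPM and at 87.5 and 40.8 CPM.

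NF-kB pathway genes and the inhibitors of signaling were raised in smaller shares. In the NF-kB list 17 of 20 genes were named and 16 tested, of which 5 rose and 0 fell without TKA rat 2. Among all named transcripts tested, 2.52% rose in that fit. *Myd88*, the adaptor of the interleukin-1 and Toll-like receptors, was at 8.80 to 15.2 CPM in naive rats, 13.2 CPM in TKA rat 2, and 18.2 to 26.4 CPM in the other 5 (log2 fold-change 0.95, SE 0.15, edgeR adjusted p = 0.00865). *Tnfrsf1a*, the main receptor of tumor necrosis factor, lay above all naive rats in all 6 TKA rats, at 57.8 to 72.8 CPM against 74.4 to 138 CPM (log2 fold-change 0.74, SE 0.12, edgeR adjusted p = 0.01). *Nfkbia* and *Nfkbiz*, an inhibitor and a nuclear cofactor of NF-kB, rose with log2 fold-changes of 0.60 and 1.71. In the list of feedback inhibitors 5 of 15 rose, namely *Zfp36*, *Socs3*, *Dusp1*, *Nfkbia*, and *Ptpn2*. Among the 5 is *Dusp1*, a phosphatase of MAP kinases, at 20.7 to 33.98 CPM in naive and 35.8 to 56.5 CPM in TKA rats (log2 fold-change 0.67, SE 0.15, edgeR adjusted p = 0.0399).

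Of 19 glucocorticoid-responsive genes tested, 5 rose and 0 fell without TKA rat 2, namely *Cdkn1a*, *Dusp1*, *Anxa1*, *Mt2A*, and *Rasd1*. For this list and the others below, the share raised over all named transcripts was 2.52%. *Fkbp5* and *Tsc22d3*, direct targets of the glucocorticoid receptor, did not pass. *Fkbp5*, a chaperone of the receptor, was at 49.6 to 81.4 CPM in naive and 55.5 to 121 CPM in TKA rats (edgeR adjusted p = 0.256 without rat 2), and *Tsc22d3*, the glucocorticoid-induced leucine zipper, had a log2 fold-change of 0.29 (edgeR adjusted p = 0.164). *Anxa1*, an anti-inflammatory lipid-binding protein, did not overlap, at 47.1 to 62.6 CPM against 67.7 to 124 CPM (log2 fold-change 0.73, SE 0.14, edgeR adjusted p = 0.0234). *Mt2A*, a metallothionein that binds zinc, was at 3.69 to 6.69 CPM in naive rats, 6.19 to 23.8 CPM in 5 TKA rats, and 58.6 CPM in TKA rat 2. Of 34 matrix genes tested, 5 rose and 0 fell, with *Adamts1* and *Adamts4*, proteases of proteoglycans, *Timp1*, and the collagens *Col4a1* and *Col8a2*. *Col4a1*, a basement membrane collagen, was at 292 to 379 CPM in naive rats and 1661 and 1074 CPM in TKA rats 2 and 6. Of 12 genes of amino acid supply and the stress response 0 rose or fell. *Slc7a5*, a transporter of large neutral amino acids, passed the adjusted p-value (edgeR, 0.0244) with a log2 fold-change of 0.52 that is under the fold threshold. Of 19 genes of lipid metabolism, *Lpl* and *Apod* rose, and both were highest in TKA rats 2 and 6. Of 18 secreted neuronal factors, *Vgf* and *Alkal2* rose and *Inhbb* fell.

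Of the 12 edgeR fits that left out 1 rat, the one without TKA rat 2 gave 21 lowered transcripts and the other 11 gave 0. Small GTPases, adhesion molecules, and potassium channels of neurons were among the named ones. *Rem2* (ENSRNOT00000016020), a small GTPase that limits calcium channels, was at 28.5 to 40.8 CPM (median 38.6) in naive rats. In TKA rats it was at 1.04 CPM in rat 2, 14.7 CPM in rat 6, and at most 23.0 CPM in any rat. The groups did not overlap, and the log2 fold-change without rat 2 was -1.03 (SE 0.15, edgeR adjusted p = 0.005). *Lrfn2* (ENSRNOT00000015705), a synaptic adhesion molecule, was at 10.8 to 16.9 CPM in naive and 2.35 to 7.32 CPM in TKA rats (log2 fold-change -1.02, SE 0.17, edgeR adjusted p = 0.0124). *Pcdh8* (ENSRNOT00000017599), an activity-regulated protocadherin, was the lower transcript with the lowest adjusted p-value with all 12 rats (0.0641, edgeR). It lay between 8.86 and 15.4 CPM (median 12.2) in naive rats and between 2.04 and 6.32 CPM (median 4.14) in TKA rats, with TKA rat 2 at 2.61 CPM inside its group. Without TKA rat 2 its log2 fold-change was -1.45 (SE 0.26, edgeR adjusted p = 0.0156).

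*Kcns3* and *Kcnh2*, both subunits of potassium channels, fell in the same fit. *Kcns3*, a modifier subunit of Kv2 potassium channels, was at 120.0 to 167 CPM (median 142) in naive rats, 7.88 CPM in TKA rat 2, and 78.5 to 109 CPM in the other 5 (log2 fold-change -0.61, SE 0.10, edgeR adjusted p = 0.0124). *Kcnh2*, the ERG potassium channel, was at 78.0 to 88.1 CPM, 10.0 CPM, and 36.2 to 65.5 CPM in the same order (log2 fold-change -0.66, SE 0.12, edgeR adjusted p = 0.0162). *Kcnc1*, a fast potassium channel, passed the adjusted p-value (edgeR, 0.0242) with a log2 fold-change of -0.52 that is under the fold threshold. In the list of ion channels and receptors, 26 of 35 genes were named and 25 tested, and *Kcnh2* fell and *Htr2b* rose. Of the 25, 19 had a negative log2 fold-change, and the median was -0.43. Over all 3179 named transcripts tested without TKA rat 2, 0.472% fell and 40.6% had a negative log2 fold-change, and over all transcripts tested 48.2% had one. In the list of synaptic proteins, 27 of 28 genes were named and tested. *Lrfn2* and *Slitrk3* fell and *Stx11*, a syntaxin of immune cells, rose, with a median of -0.38 and a negative value in 22 of the 27. *Slitrk3*, an adhesion molecule of inhibitory synapses, was at 61.6 to 70.6 CPM in naive rats and 26.2 to 48.2 CPM in the 5 TKA rats (log2 fold-change -0.71, SE 0.13, edgeR adjusted p = 0.0183). *Syt2*, *Pacsin1*, and *Dlgap3* passed the adjusted p-value with log2 fold-changes of -0.49, -0.53, and -0.50, under the fold threshold.

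The remaining named lowered transcripts were *Mab21l2*, *Colgalt2*, *Flt3*, *Ankrd35*, *Myh8*, *Zfp423*, *Inhbb*, *Plg*, and *Fam20a*. *Inhbb*, a subunit of activin and inhibin, was at 26.4 to 40.6 CPM in naive and 10.96 to 25.8 CPM in TKA rats without overlap (log2 fold-change -0.74, SE 0.15, edgeR adjusted p = 0.032). *Flt3*, a receptor tyrosine kinase, was likewise separate, at 36.8 to 56.7 CPM against 21.9 to 33.2 CPM (log2 fold-change -0.64, SE 0.12, edgeR adjusted p = 0.0198). *Zfp423*, a zinc finger factor, and *Ankrd35* did not separate when TKA rat 2 was counted. For *Zfp423* that rat was at 50.2 CPM, against 21.6 to 28.8 CPM in the other 5 and 31.8 to 48.6 CPM in naive rats. For *Ankrd35* it was at 16.8 CPM, within the 16.3 to 24.2 CPM of naive rats. *Plg*, plasminogen, was low, at 0.352 to 1.48 CPM in naive and at most 0.172 CPM in TKA rats. *Sema7a* and *Gas6*, a semaphorin and the ligand of the TAM receptor kinases, were below all naive rats in all 6 TKA rats and passed the adjusted p-value without TKA rat 2 (edgeR, 0.0176 and 0.0185), with log2 fold-changes of -0.47 and -0.47 that are under the fold threshold. Among unnamed transcripts, ENSRNOT00000073432 and ENSRNOT00000007358 rose and ENSRNOT00000004958 and ENSRNOT00000004400 fell, with log2 fold-changes of 1.5, 1.81, -1.22, and -0.66.

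**Figure D4:**
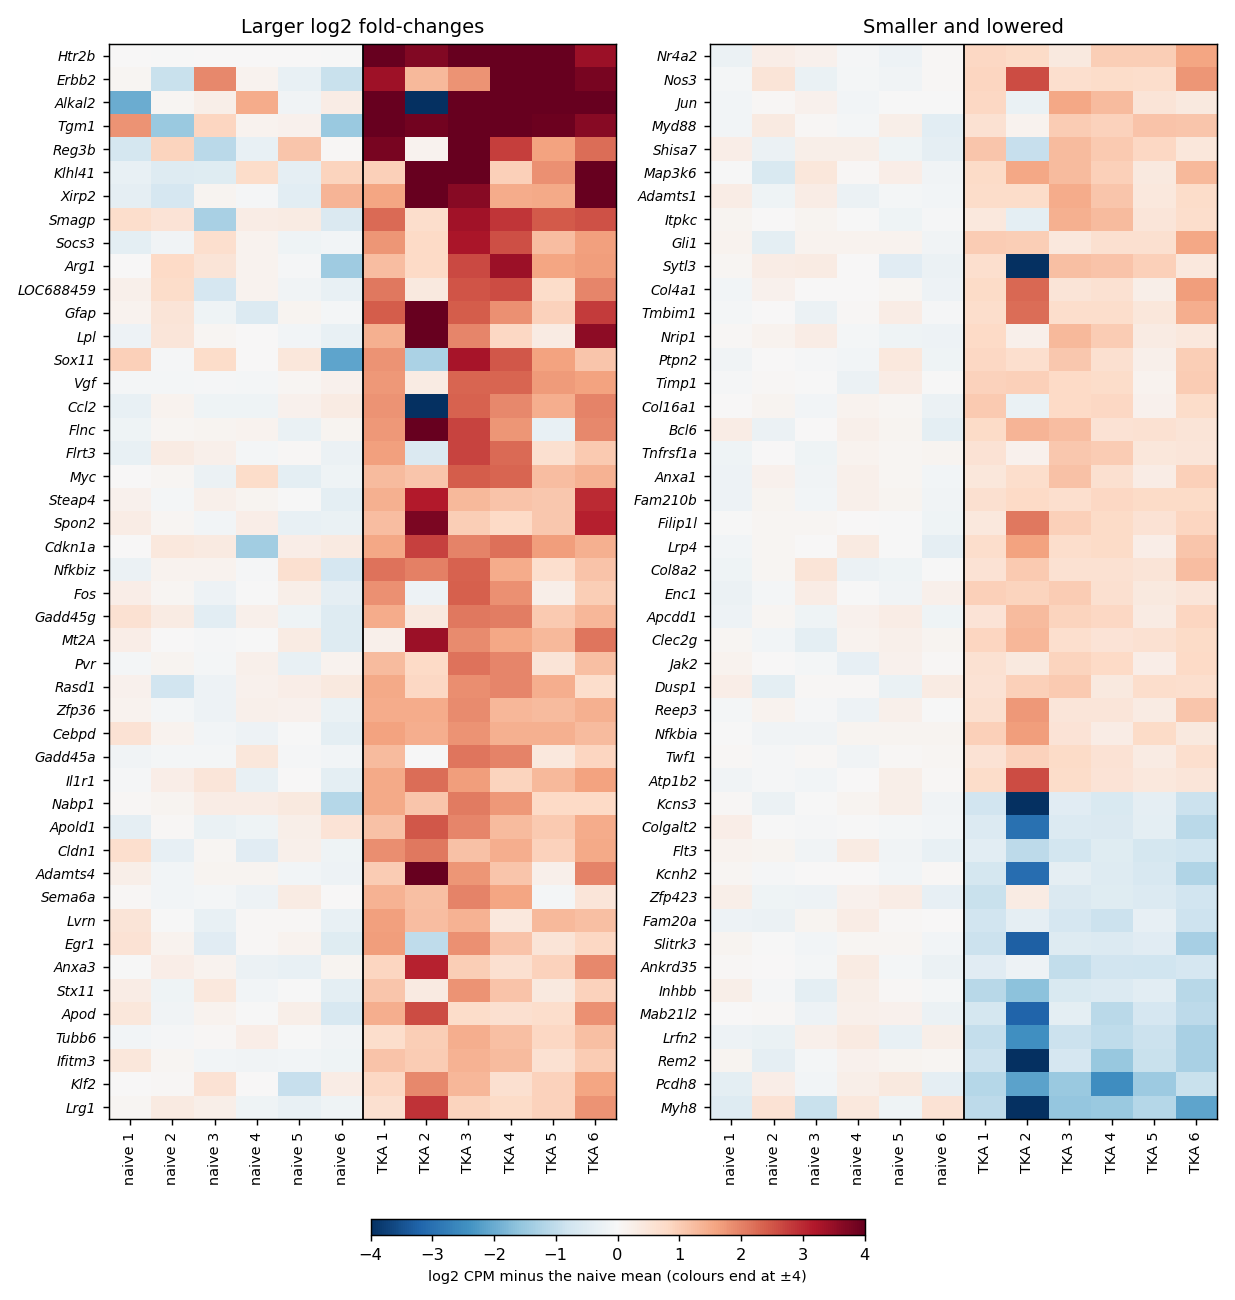
Log2 CPM of each rat minus the naive mean (colour, ending at 4 in either direction) for 92 named transcripts called without TKA rat 2, ordered by log2 fold-change, with 14 lowered ones at the bottom right. TKA rat 2 departs from the other TKA rats in both directions, far below them for *Alkal2*, *Ccl2*, and *Sytl3* and far above them for *Gfap*, *Atp1b2*, and *Adamts4*.

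Cell type marker levels also differed in some TKA rats, and their part in the results was not tested. In bulk ganglia, fewer cells of a type and less RNA per cell cannot be told apart. All 15 myelinating Schwann cell markers tested had an unadjusted edgeR p-value under 0.05 and a higher level with 12 rats, against 32.8% of named transcripts. Of the 15, 0 passed the adjusted test, and the median log2 fold-change was 1.65 with 12 rats and 1.04 without TKA rat 2. The summed level was 11525 to 19698 CPM in TKA rats other than 2 and 6, against 7465 to 12761 CPM in naive rats. TKA rats 3, 4, and 5 lay within the naive range. The macrophage markers had a median of 0.96 with 12 rats and 0.68 without rat 2, and 0 of 15 passed. Their sum was 171 to 313 CPM in naive rats, 1016 CPM in TKA rat 2, and 289 to 444 CPM in the other TKA rats. *C1qb*, a complement component of macrophages, was above all naive rats in 6 of 6 TKA rats, at 6.22 to 12.9 against 13.1 to 51.4 CPM (edgeR adjusted p = 0.0611 without rat 2). Of 15 muscle markers, *Klhl41* and *Xirp2* rose and *Myh8* fell without rat 2, and the summed level of the list was 96.1 to 1148 CPM in TKA rats other than 2 and 6. In both fits 14 of the 15 had a positive log2 fold-change, with a median of 3.50 with 12 rats and 1.79 without rat 2. Of 7 endothelial markers tested, 1 rose without rat 2, *Nos3*, and *Esm1* had a negative log2 fold-change of -0.93. The median of the 7 was 1.35 with 12 rats and 0.84 without rat 2. Of 5 satellite glial markers tested, 1 rose without rat 2, *Gfap*, while *Apoe* and *Fabp7* had negative values of -2.24 and -0.30. The median of the 5 was 0.23 with 12 rats and 0.086 without rat 2. Fibroblast markers had a median of 0.75 and 0.41 with and without TKA rat 2, with 0 of 9 called, and red cell markers had 0 of 2 called. The neutrophil, lymphocyte, and adipocyte lists had 0, 1, and 1 named genes, so these cells were not checked.

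Of 21 neuronal markers listed, 6 were named and tested, and 0 were called. With 12 rats 4 of the 6, the 3 neurofilaments and *Isl1*, had negative log2 fold-changes, *Calca* and *Ntrk3* had positive ones of 0.10 and 0.50, and the median was -0.52. *Nefh*, the heavy neurofilament, ranged from 10750 to 14459 CPM in naive rats and from 5760 to 12296 CPM in TKA rats. With the mean level of the 3 neurofilaments as a covariate and TKA rat 2 left out, 76 transcripts rose and 5 fell. The covariate was itself lower in the 5 TKA rats, at 12.8 to 13.7 against 13.5 to 13.9 log2 CPM in naive rats. Group and covariate are thus in part confounded. The calls of that fit include 49 of the 92 raised and 1 of the 21 lowered transcripts, *Pcdh8*, which had a log2 fold-change of -1.84 (edgeR adjusted p = 0.0368). Log2 fold-changes of the 92 and the 21 had medians of 1.24 and -0.67 in that fit, against 1.13 and -0.74 without the covariate. *Kcns3*, *Kcnh2*, and *Slitrk3* had log2 fold-changes of -0.41, -0.37, and -0.36 in that fit (edgeR adjusted p-values 0.27, 0.288, and 0.393). Of the 13 raised transcripts of the axon injury list, 11 were called again with the covariate, among them *Vgf*, *Alkal2*, and *Sox11* with log2 fold-changes of 2.23, 4.72, and 3.02, while *Enc1* and *Flnc* were not. Outside that list, *Ccl2* was at 1.95 and *Zfp36* at 1.71. *Apod*, *Steap4*, and *Col4a1*, which were highest in TKA rats 2 and 6, were at 0.67, 0.92, and 0.34 and were not called. Without both TKA rat 2 and rat 6, 75 of the 92 raised and 14 of the 21 lowered transcripts were called, with medians of 1.12 and -0.70.

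**Figure D5:**
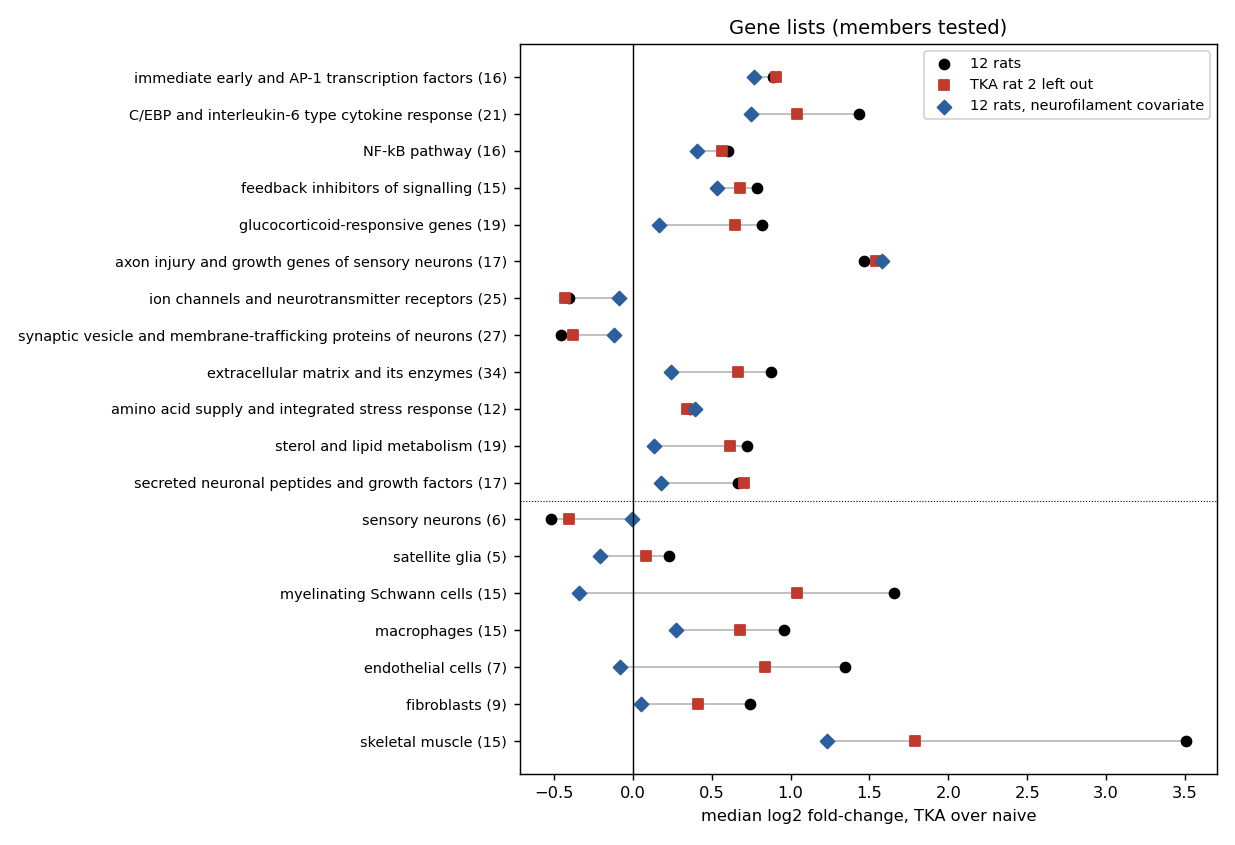
Median log2 fold-change of TKA over naive rats for each gene list with at least 5 tested members (number in parentheses), with 12 rats (black), without TKA rat 2 (red), and with 12 rats and the neurofilament covariate (blue). The axon injury list stays near 1.5 in the 3 fits drawn, while the myelinating Schwann cell list goes from 1.65 to -0.34. With the covariate and without TKA rat 2, a fit not drawn, the medians of these lists were 2.05 and -0.098.

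The lists have to be read against how transcripts were named. Names came from tables sorted by the study's own tests on these rats, so named transcripts changed more often than the rest. Of 3144 named transcripts tested with 12 rats, 1030 were higher (32.8%) and 462 lower (14.7%) at an unadjusted p-value under 0.05, against 11.7% and 5.48% of all transcripts. Log2 fold-changes had a median of 0.18 for named and 0.020 for all transcripts. The counts in the lists are therefore descriptions, and a list's members are not independent evidence of its direction.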

How the data were processed

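RNA was sequenced from L3 and L4 DRGs of 18 rats, of which the 6 TKA and 6 naive rats were compared. The authors aligned paired-end reads of 150 bp to rn6 (HISAT2), and the deposited values are unnormalized featureCounts counts for Ensembl transcripts, which the authors tested with DESeq2. Strand and overlap settings are not given in the sources used here, so transcripts that share exons, near-identical genes, and antisense partners are uncertain. RNA-seq counts cover 41078 transcripts, 25130 with a count in these 12 rats.

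Counts were tested with edgeR 4.0.16 in R 4.3.3 (filterByExpr, TMM, quasi-likelihood F test on the group, Benjamini-Hochberg adjustment). To obtain the SE, each log2 fold-change was divided by the root of its F statistic. Log2 CPM used a prior count of 2. DESeq2 1.42.0 and limma 3.58.1 (voom) were alternatives. The group fits with edgeR, voom, and DESeq2 were tested on simulated counts. The simulation had the same dispersion for all transcripts and no library that stood apart as TKA rat 2 did. Covariate fits, lists, and promoter matches were not tested in this way. Depth was similar in all rats, and the most alike pair of libraries differed by more than the sampling noise. Each rat was 1 replicate. Rat numbers are shared by groups, but same-numbered rats did not deviate together (correlations -0.0191 to 0.0701), so no pairing was used.

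Names came from the 3837 transcripts named in the study's table of differential transcripts and in a shortened copy of its supplementary table, whose fold-changes and p-values were not used. Named in the text are the transcripts called, those with the lowest p-values in each direction with and without TKA rat 2, and the members of 23 lists with the lowest p-values. The members, lists, and the fit without TKA rat 2 were chosen with earlier results of these data known. Promoters came from RefSeq (GRCr8), and coordinates are those of that build. Behavior and cytokine data were not analysed here. Values of a few genes are not reported.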

Additional observations from a re-analysis of the deposited data

Results flagged for a closer look

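7 of 76 groups of 6 values held a rat far from the other 5 of its group by Dixon's criterion, and chance flags about 1 in 20 groups, or 3.8 of 76. Of the 7, 4 were TKA rat 2, and the values are log2 CPM. TKA rat 2 was lowest for *Vgf*, at 5.219 with the next rat at 6.522, and for *Lrfn2*, at 1.285 with the next at 2.449. It was highest for the summed satellite glia markers, at 11.71 with the next at 10.03, and for the summed macrophage markers, at 9.989 with the next at 8.794. TKA rat 3 was highest for *Zfp36*, at 6.146 with the next at 5.748. Naive rat 4 was lowest for *Cdkn1a*, at 0.297 with the next at 1.708. Naive rat 6 was highest for the summed satellite glia markers, at 9.59 with the next at 9.493. The call of *Zfp36* did not rest on TKA rat 3, since it was called in all 12 of the fits that left out 1 rat, while *Cdkn1a* was called in 3 of the 12 and *Vgf* in 4.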

How the results depend on the processing

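With 12 rats, the counts of 13 raised and 0 lowered transcripts were within 1.5 times of the first under a sex covariate with either label of TKA rat 4, a robust fit, RLE scaling, no filter, a filter at a mean of 50 counts, and no fold threshold (11 to 15 raised and 0 lowered). They were 362 and 67 with DESeq2 without a prior, 294 and 49 with a prior, 100 and 23 with limma voom, 38 and 1 with the neurofilament covariate, 104 and 12 with all 3 groups in one fit, and 88 and 17 without TKA rats 2 and 6. Of the 13 transcripts, only 6 were called again with the neurofilament covariate. All 13 were called again with all 3 groups in one fit, and 11 in each of the other fits just named. Leaving out each rat in turn gave 3 to 92 raised and 0 to 21 lowered. Without TKA rat 2, the 92 and 21 were 214 and 59 with DESeq2 without a prior, 144 and 27 without a filter, 125 and 52 without a fold threshold, and 76 and 5 with the neurofilament covariate, and leaving out a further rat gave 47 to 164 and 8 to 34. With the rat number as a replicate block, 1 transcript was raised with 12 rats, and 24 were raised and 2 lowered without TKA rat 2. Rats of the same number also shared the sex label, so this block includes the labelled sex. The sources used here give no other link between them, and 1 of 6 naive rats correlated best with the TKA rat of its number. The cause of these shifts was not tested. For 30 transcripts with 12 rats and 99 without TKA rat 2, those called or with the lowest p-values, the log2 fold-change was recomputed under each setting, and it changed sign in none of 749 and 1876 comparisons, of which 111 and 459 lost the call and 53 and 0 gained it. These transcripts were chosen by their results in largely the same rats, so a change of sign was unlikely from the start. The median log2 fold-changes of the satellite glia, myelinating Schwann cell, and endothelial marker lists did change sign with 12 rats and the neurofilament covariate, from 0.23 to -0.21, from 1.65 to -0.34, and from 1.35 to -0.079. Depth limits *Htr2b*, *Plg*, and *Bdnf*, whose naive or TKA counts were near 0.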
